A study of Mus musculus with 4 samples.

Results

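The NF-kB subunit genes and the genes of their inhibitors were compared between 2 groups of fibroblasts isolated from mouse 4T1 tumours. The 10 genes were chosen by name, as the subunit genes Rela, Nfkb1, Nfkb2 and Relb, the IkB family genes Nfkbia, Nfkbib, Nfkbie, Nfkbiz and Bcl3, and Tnfaip3. All 10 were found among the 22456 genes of the table, and all 10 had a mean above the expression filter that 14548 genes passed. Their values were known from earlier work on these data when the list was made, so no test is given for the list as a whole.

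The tumours grew in Balb/cAnN mice from 4T1 cells, a mammary carcinoma line of the same strain, injected into the mammary fat pad and collected after 8 days. Before injection the 4T1 cells had spent 5 days in DMSO, the solvent (2 libraries), or in 5 µM GSK269962A (2 libraries, called GSK here). The fibroblasts are host cells of these tumours, and the labels describe the compound as given to the cancer cells before injection. They were obtained by depletion: magnetic beads took away leukocytes (CD45), endothelial cells (CD31), epithelial cells (CD326) and cells labelled with human CD2, so the RNA is that of the remaining mesenchymal cells as a whole. Expression is given as log2 of the normalised level, as deposited. Nothing in the labels ties each library to its own animal or to a pool, so the p-values reflect the spread among these samples, which may be technical. Neither mouse age nor read depth is given in the sources used here.

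NF-kB is a family of dimeric transcription factors that is held in the cytoplasm by IkB proteins. Signals such as tumour necrosis factor or interleukin-1 activate the IkB kinase (IKK) complex, IkB is marked for destruction, and the dimer enters the nucleus. Several inhibitors are themselves NF-kB target genes, which gives negative feedback, and in fibroblasts the pathway drives cytokine and chemokine expression.

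Of the 10 genes, 1 fell in GSK fibroblasts at an adjusted p under 0.05 (limma, adjusted over all genes tested) and none rose. The gene that fell was Tnfaip3, which was 1.87-fold lower (95% interval 1.58 to 2.21). Among all genes tested, 0.282% passed this threshold in either direction and 0.131% were lower. At an unadjusted p under 0.05 there were 4 of the 10, all inhibitor genes with a lower value in GSK, where 8.13% of all genes tested had such a p with a lower value and 16% in either direction. All 10 estimates were below 0, with a median change of -0.09 against -0.001 over all genes tested, of which 50.5% were below 0. Without GSK library 2 the median was -0.010 with 8 of the 10 below 0, and it was -0.183 without GSK library 1 and -0.142 without DMSO library 2. The 4 subunit genes had a median change of -0.046 and the 6 inhibitor genes one of -0.260. With a library left out, the subunit median ran from -0.106 to 0.021 and turned direction without GSK library 2, while the inhibitor median ran from -0.345 to -0.175. Tnfaip3 missed the threshold without DMSO library 1 (adjusted p = 0.111), with a variance prior without trend (0.0683) and with no expression filter (0.222), at changes of -0.83, -0.90 and -0.90.

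**Figure D1:**
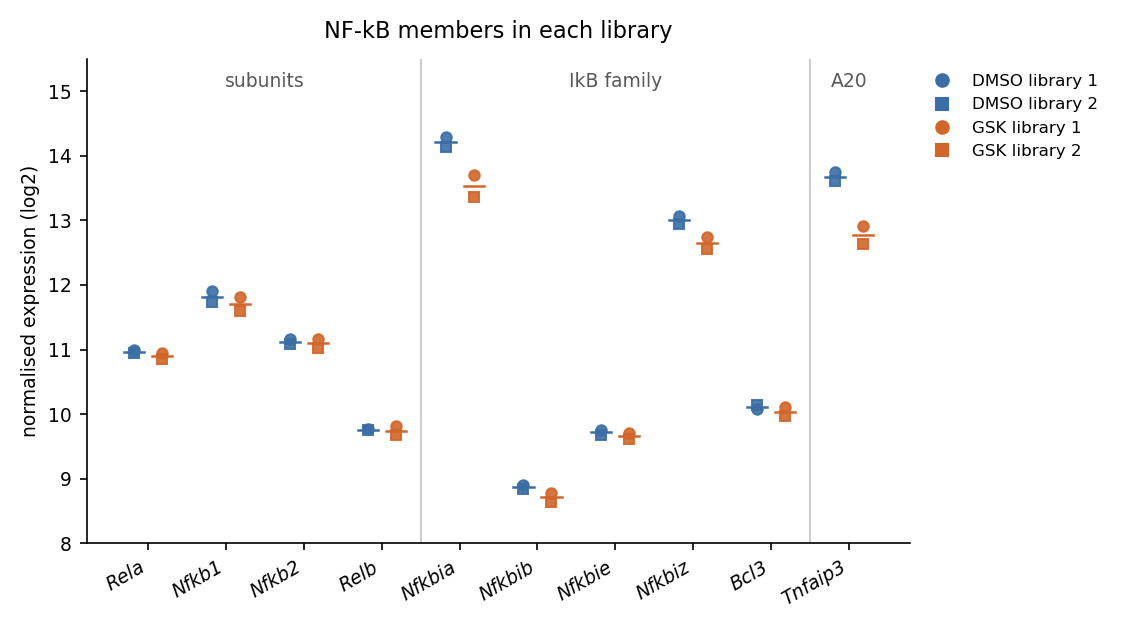
Normalised expression (log2) of the 10 genes in each library. Circles are library 1 and squares library 2 of a group, blue is DMSO, orange is GSK, and bars are group means. The GSK points of Nfkbia, Nfkbib, Nfkbiz and Tnfaip3 lie below both DMSO points, with the widest gap, 0.70, for Tnfaip3, and those of the 4 subunit genes overlap DMSO. Of all genes tested, 24.5% had both GSK libraries below both DMSO libraries.

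Tnfaip3 encodes a ubiquitin-editing enzyme that shuts down signalling from receptors to the IKK complex. On the log2 scale the DMSO libraries measured 13.75 (library 1) and 13.61 (library 2), and the GSK libraries 12.91 and 12.64 in the same order. Both GSK libraries were below both DMSO libraries, by 0.70 between the nearest ones. The change was -0.90 ± 0.10 (SE, n = 2 per group, limma adjusted p = 0.0374), and 30 of the 14548 genes tested had a smaller p. The gene lies on GRCm38 chromosome 10, minus strand, from 19000910 to 19015657.

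Nfkbia encodes IkB-alpha, the inhibitor that is destroyed and resynthesised within a signalling cycle. It measured 14.29 and 14.14 in DMSO and 13.70 and 13.37 in GSK. The groups did not overlap, with 0.44 between the nearest libraries, but the change of -0.68 ± 0.12 did not pass the threshold (limma adjusted p = 0.0703). The 95% interval of the change ran from -0.97 to -0.40. With a library left out, the change ran from -0.85 (without GSK library 1) to -0.52 (without GSK library 2). Nfkbia lies on chromosome 12, minus strand, from 55489410 to 55492647.

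The sequences upstream of the start site were searched for the kB consensus, the 10-base motif that NF-kB dimers bind, on both strands. This was done because several genes of this family are known NF-kB targets and 4 inhibitor genes had lower values in both GSK libraries. Those 4 were Tnfaip3, Nfkbia, Nfkbiz and Nfkbib, and 24.5% of all genes tested had such lower values. Of the 10 genes, 7 have entries in the promoter table, from RefSeq on GRCm38.p6; Nfkbiz, Nfkb1 and Relb do not. A match within 250 bases before a start site was present for Tnfaip3, Nfkbia, Nfkbie and Nfkb2. Rela, Nfkbib and Bcl3 had none in this window. Over the whole table, 3.9% of 32851 such windows and 4.46% of 27025 genes held a match. The sequences with matches are shown to place Tnfaip3 and Nfkbia, with the most negative estimates, beside Nfkbie and Nfkb2, which also carry matches and had estimates of -0.05 and -0.03. All are on the strand of the gene, 5′ to 3′, and capitals mark the matches, some of which are on the opposite strand and, in Nfkb2, overlap.
Tnfaip3: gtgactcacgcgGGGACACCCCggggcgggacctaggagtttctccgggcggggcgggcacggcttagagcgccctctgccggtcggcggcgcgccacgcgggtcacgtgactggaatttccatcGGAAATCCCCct
Nfkbia: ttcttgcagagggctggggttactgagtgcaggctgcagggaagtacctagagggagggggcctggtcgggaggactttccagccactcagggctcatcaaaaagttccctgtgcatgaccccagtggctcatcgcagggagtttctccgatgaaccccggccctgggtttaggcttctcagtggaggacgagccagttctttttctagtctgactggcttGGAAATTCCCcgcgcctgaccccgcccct
Nfkbie: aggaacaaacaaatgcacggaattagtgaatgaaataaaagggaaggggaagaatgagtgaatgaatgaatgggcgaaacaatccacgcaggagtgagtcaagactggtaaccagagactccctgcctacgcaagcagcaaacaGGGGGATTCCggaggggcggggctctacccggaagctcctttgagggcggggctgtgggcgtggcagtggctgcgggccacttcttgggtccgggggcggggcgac
Nfkb2: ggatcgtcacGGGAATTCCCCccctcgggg

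The Tnfaip3 stretch (chr10:19015411-19015547) is the part of the upstream window outside annotated exons, 137 bases, with matches that begin at -125 and -12, counted in bases from the start site; the window of its other start site held none. The Nfkbia stretch (chr12:55492648-55492897) has 1 match, at -29, and the Nfkbie stretch (chr17:45555450-45555699) has 1, at -106. For Nfkb2 only 30 bases around the matches that begin at -39 and -38 from the first of its 3 start sites are shown (chr19:46304688-46304717). The rest is left out because that window lies in annotated exons of Nfkb2 and of AC114539.1, a gene on the opposite strand. A further match in that window, which begins at -11, is not shown. Each of the 3 Nfkb2 windows held at least 1 match. Among these 7 genes, matches were present both at low estimates (Tnfaip3, Nfkbia) and at estimates near 0 (Nfkbie, Nfkb2), and Nfkbib, at -0.16, had none. A match describes the letters and does not show binding.

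Nfkbiz encodes an atypical nuclear IkB protein that acts on a subset of target genes, among them Il6. Its values were 13.07 and 12.95 in DMSO and 12.75 and 12.55 in GSK. The groups were apart by 0.21, and the change of -0.36 ± 0.08 did not pass (limma adjusted p = 0.113). Nfkbib, which encodes the slower-acting IkB-beta, measured 8.91 and 8.83 in DMSO and 8.78 and 8.63 in GSK. Its groups were apart by only 0.05, and its change was -0.16 ± 0.06 (limma adjusted p = 0.286). Both GSK libraries lay below both DMSO libraries in 4 of the 10 genes, namely Nfkbia, Nfkbib, Nfkbiz and Tnfaip3, against 24.5% of all genes tested. In none of the 10 did both GSK libraries lie above both DMSO libraries, against 24.1%.

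The remaining inhibitor genes had estimates near 0. Nfkbie, for IkB-epsilon, measured 9.75 and 9.68 in DMSO and 9.71 and 9.62 in GSK. Its change was -0.05, with a 95% interval from -0.18 to 0.08. Bcl3, for a nuclear IkB protein that partners dimers of the Nfkb1 and Nfkb2 products, measured 10.08 and 10.14 in DMSO and 10.10 and 9.97 in GSK. Its change was -0.07, with an interval from -0.21 to 0.07. In both genes GSK library 1 lay within the DMSO range and GSK library 2 below it.

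None of the 4 subunit genes passed the threshold, and in each the groups overlapped. Rela, for the main transactivating subunit, measured 10.99 and 10.95 in DMSO and 10.95 and 10.85 in GSK, and its change of -0.07 had a 95% interval from -0.19 to 0.06. Nfkb1, for a precursor that is processed into the usual partner of the Rela product, measured 11.90 and 11.73 in DMSO and 11.81 and 11.59 in GSK. Its change was -0.12, with an interval from -0.33 to 0.10. The genes of the non-canonical branch, which lymphotoxin-beta receptor and CD40 engage, had the smallest estimates. Nfkb2 measured 11.16 and 11.08 in DMSO and 11.17 and 11.02 in GSK (change -0.03, interval -0.17 to 0.12), and Relb 9.76 and 9.76 in DMSO and 9.82 and 9.67 in GSK (change -0.01, interval -0.16 to 0.13). The lowest of these bounds is the -0.33 of Nfkb1, so the tests do not show that the subunit genes were the same in both groups.

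**Figure D2:**
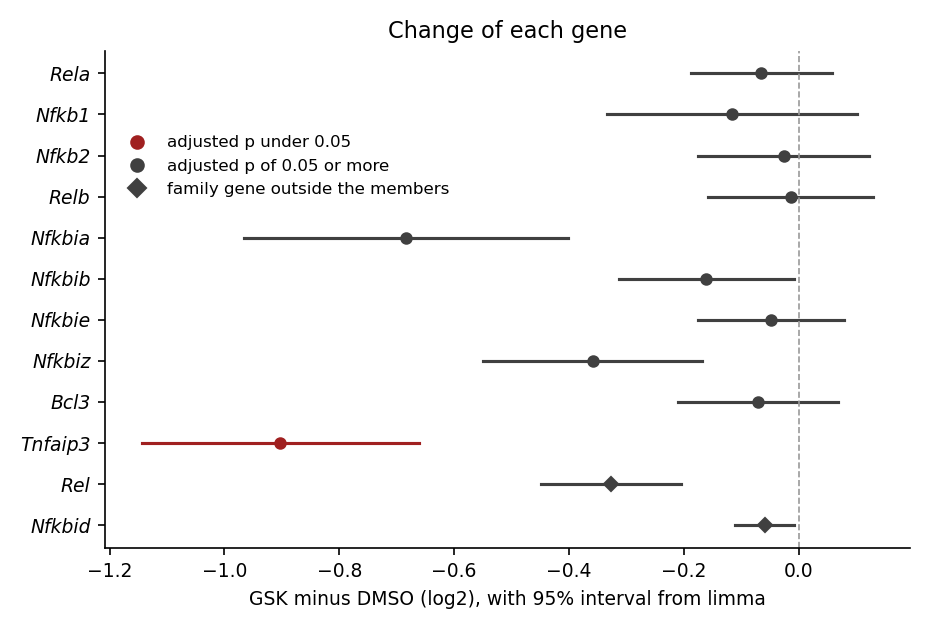
Change of each gene, GSK minus DMSO (log2), as the limma estimate with its 95% interval. Circles are the 10 genes, diamonds are Rel and Nfkbid, and red marks an adjusted p under 0.05. Tnfaip3 alone is red, at -0.90, and the intervals of the 4 subunit genes cover 0.

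Both remaining genes of the family, Rel and Nfkbid, also had lower values in GSK that did not pass. Rel, for a subunit best known from lymphocytes, measured 8.35 and 8.26 in DMSO and 7.97 and 7.99 in GSK. The groups were apart by 0.27, and the change was -0.33 ± 0.05 (limma adjusted p = 0.0584). The limma adjusted p of Rel was 0.0461 with a robust variance prior and 0.222 with no expression filter. Nfkbid, for a further nuclear IkB protein, was close to the lower end of the tested range at 3.77 to 3.85, and its change of -0.06 ± 0.02 had an adjusted p of 0.251.

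Differences between genes inside a library do not depend on how the libraries were scaled against each other. Tnfaip3 lay above Rela by 2.76 and 2.66 (log2) in DMSO and by 1.96 and 1.79 in GSK. Nfkbia lay above Rela by 3.31 and 3.19 in DMSO and by 2.75 and 2.52 in GSK, and Nfkbiz by 2.08 and 2.01 against 1.80 and 1.70. Set against each of the 4 subunit genes in turn, the differences of Tnfaip3, Nfkbia and Nfkbiz were smaller in both GSK libraries than in either DMSO library. These differences reuse the library values given above and are no separate test. Nfkbib lay further below Rela, Nfkb2 and Relb in both GSK libraries than in either DMSO library. Against Nfkb1 its groups overlapped, at -2.996 and -2.903 in DMSO and -3.033 and -2.955 in GSK. For Nfkbie the groups overlapped in all 4 such differences, and for Bcl3 in all but that with Relb, which was 0.317 and 0.385 in DMSO and 0.284 and 0.304 in GSK.

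Levels of different genes were compared after dividing by gene length. With the union of a gene's exons as its length, Nfkbia had the highest level, 13.19 ± 0.42 (log2 per kilobase, mean ± SD over the 4 libraries). Nfkbiz at 10.50 ± 0.23 and Tnfaip3 at 10.37 ± 0.54 followed, with ranges that overlapped each other and no other gene. These means, SDs and ranges take in both groups. In DMSO the mean of Tnfaip3, 10.82, was above that of Nfkbiz, 10.68, and in GSK it was below, 9.92 against 10.32. Rela at 9.32 ± 0.06 was the highest of the subunit genes, above Nfkb2 at 8.91 ± 0.07 and Bcl3 at 8.77 ± 0.07, which overlapped. Nfkb1 at 8.17 and Nfkbie at 8.09 overlapped, as did Relb at 7.79 and Nfkbib at 7.67. Over the 4 libraries, the order of the upper 3 was the same with the longest transcript as the length. With that length Nfkb1 stood at 9.71, ahead of Rela at 9.49, since the Nfkb1 exons span 12061 bases in union and 4149 in the longest transcript. The 3 genes with the highest level per length were thus also the 3 with the most negative estimates.

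**Figure D3:**
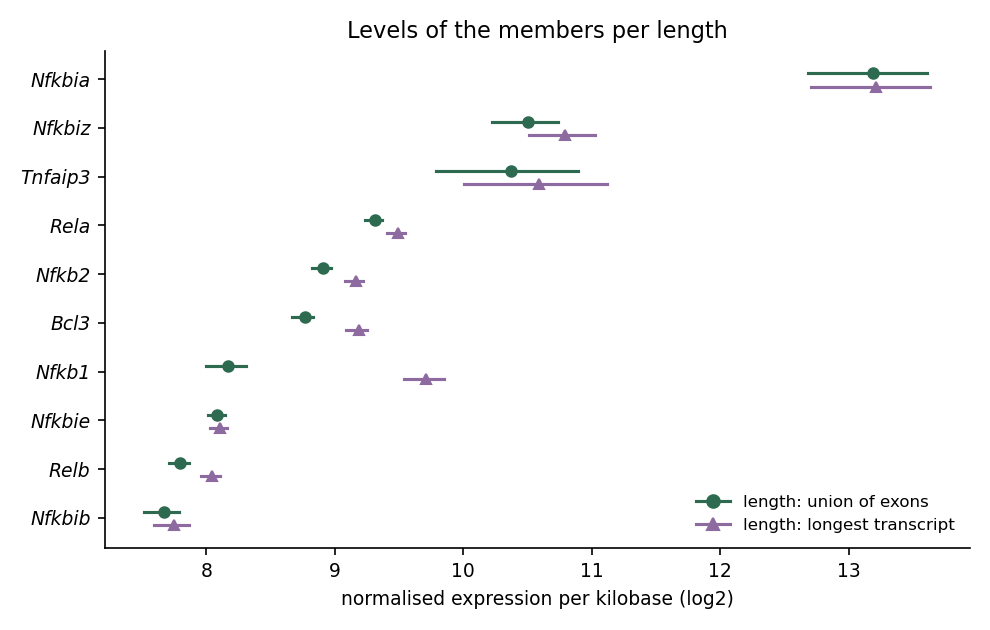
Level of the 10 genes per kilobase (log2), with points for the mean and lines for the range over the 4 libraries. Green circles use the union of exons as the length and purple triangles the longest transcript. Nfkbia stands alone near 13.19, and Nfkb1 moves from 8.17 to 9.71 with the choice of length.

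The levels upstream of the members were then compared by role. Among 11 genes of the IKK complex and the kinases that feed it, none passed, and the median change was 0.01. Chuk and Ikbkb, the catalytic subunits, were at 0.03 and 0.05, and Ikbkg, the regulatory subunit, at 0.05. The lowest was Map3k8, a kinase that the Nfkb1 precursor binds, at -0.22 ± 0.07 (limma adjusted p = 0.211). Tab1, for a partner of the kinase that activates IKK, was at 0.06, and Map3k14, for the kinase of the non-canonical branch, at -0.06. Among 18 adaptors and ubiquitin ligases none passed either (median 0.01), with the extremes Birc3, an inhibitor of apoptosis protein, at -0.15 and Irak2, an interleukin-1 receptor kinase, at 0.21. Birc2, the paralogue of Birc3, was at -0.13, Tradd, an adaptor of the tumour necrosis factor receptor, at 0.12, and Rnf31, the catalytic part of the linear ubiquitin ligase, at 0.09.

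Of 18 receptors that signal to NF-kB, 14 were tested, 1 fell and none rose (median change -0.01). Over all genes tested, 0.131% fell and 0.151% rose. The receptor that fell was Il1rl1, which binds interleukin-33: it measured 9.67 and 9.65 in DMSO and 8.83 and 8.91 in GSK, a change of -0.79 ± 0.05 (limma adjusted p = 0.00896). The receptors for tumour necrosis factor and interleukin-1 that are widely expressed in fibroblasts had estimates near 0, Tnfrsf1a at -0.06 and Il1r1 at 0.035. Cd40 was at 0.26 ± 0.07 (adjusted p = 0.155), and the Toll-like receptor genes Tlr1 and Tlr5 were at -0.05 and -0.13. Of 12 ligands, 8 were tested and none passed (median -0.06). Il33 measured 13.43 and 12.84 in DMSO and 12.79 and 12.33 in GSK, so the libraries of each group were apart by about as much as the change of -0.58 ± 0.22 (adjusted p = 0.271). Tnf, at 6.95 to 7.36 over the 4 libraries, was at -0.28 ± 0.07 (adjusted p = 0.13), Il18 was at -0.07, and Il1b, with levels of 4.12 to 4.19, at 0.04.

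Of 14 other negative regulators, 13 were tested and none passed, with 8 estimates below 0, 5 above and a median of -0.002. Irak3, a kinase-like protein that restrains Toll-like and interleukin-1 receptor signalling, measured 9.60 and 9.41 in DMSO and 9.01 and 9.13 in GSK (change -0.43 ± 0.07, limma adjusted p = 0.0703). Tnip2, a partner of the Tnfaip3 product, was at -0.15, and Pdlim2, which promotes the degradation of the nuclear Rela product, at 0.22 ± 0.05. N4bp1, for a ubiquitin-binding inhibitor of NF-kB signalling, measured 9.97 and 9.96 in DMSO and 10.12 and 10.11 in GSK, higher in both GSK libraries (change 0.15 ± 0.04, adjusted p = 0.15). Cyld, a deubiquitinase that acts on the same ubiquitin chains, was at 0.10 and overlapped between groups.

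Downstream, 2 of 32 NF-kB target genes fell and none rose, with a median change of -0.37 against -0.001 over all genes tested. Of all genes tested, 0.131% fell and 0.151% rose at the same threshold. The target list was set by name with earlier results known, and several of its genes respond to other signals as well. Both GSK libraries lay below both DMSO libraries in 22 of the 32, where the share over all genes tested was 24.5%. In 5 of the 32 both GSK libraries lay above both DMSO libraries, against 24.1% of all genes tested. The genes that fell were Lif, a cytokine of the interleukin-6 family, at 11.89 and 11.87 in DMSO and 10.85 and 11.05 in GSK, and Ptgs2, the inducible prostaglandin synthase, at 13.45 and 13.29 against 12.43 and 12.63. Of the 9 chemokine genes in the list, 8 had estimates below 0 and none passed. The neutrophil attractants Cxcl2 and Cxcl1 were at -0.85 ± 0.12 and -0.74 ± 0.14, and the monocyte attractant Ccl2 at -0.78 ± 0.10 (limma adjusted p = 0.0576, 0.082 and 0.0543). Gadd45b, a stress gene that restrains cell death, was at -0.47 ± 0.07 (adjusted p = 0.0567). Targets with estimates above 0 included Mmp9, a gelatinase, at 1.14 ± 0.24 (adjusted p = 0.106), Cx3cl1, another chemokine gene, at 0.29 and Cflar, which blocks caspase activation, at 0.15. The median of the 32 was -0.240 without DMSO library 1 and -0.423 without DMSO library 2. It was -0.406 without GSK library 1 and -0.246 without GSK library 2.

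**Figure D4:**
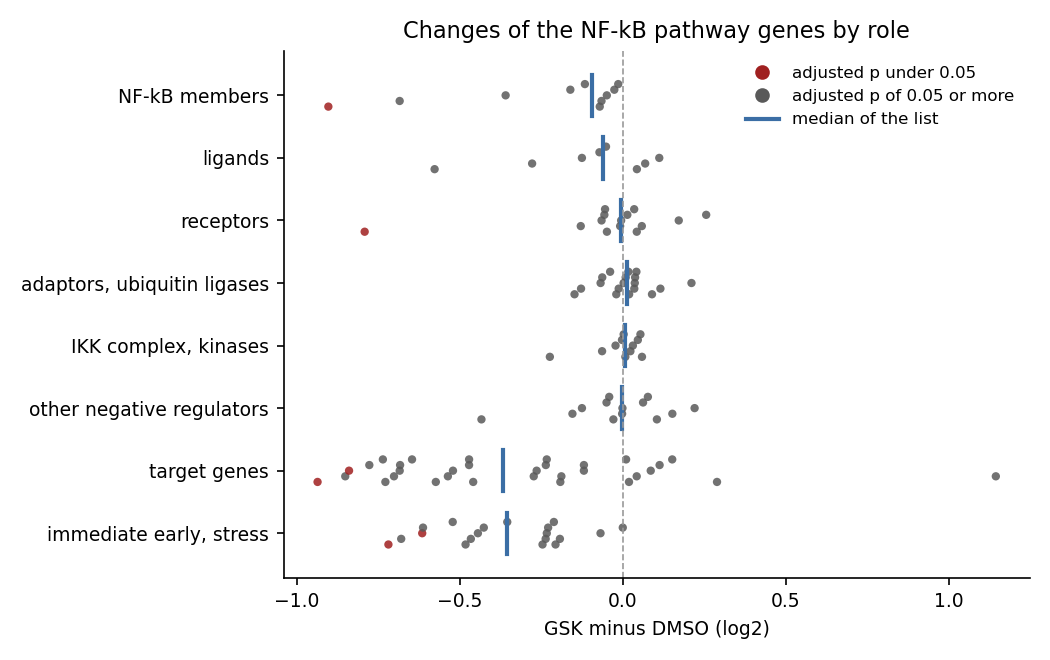
Change of each tested gene, GSK minus DMSO (log2), in rows by role. Each point is a gene, red points have an adjusted p under 0.05, and blue bars are list medians. The bars of the receptors, adaptors, kinases and other negative regulators lie within 0.02 of 0, and those of the target genes and the immediate early genes lie at -0.37 and -0.35.

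The profiles most like those of the NF-kB genes were found by the distance between library values centred on each gene's own mean, among the 11837 genes whose mean reached log2 of 50. The 10 NF-kB genes were left out of the ranking, so it does not show how near they lie to each other. Nearest to Tnfaip3 over the 4 libraries was Cxcl2 (distance 0.13), then Rnd1, a small GTPase gene, at 0.20, Cxcl1 at 0.21, the heat shock gene Hspa1b at 0.21 and Gm4294, a processed pseudogene, at 0.23. The reads of a processed pseudogene and of its parent gene can be hard to separate, so the value of Gm4294 is uncertain. Nearest to the mean profile of the 10 genes were Abcb1b, a drug efflux pump, Fth1, the ferritin heavy chain, Map3k8, Arl4a and Zfpm2, all at 0.02 to 0.03. That mean profile was 0.16 and 0.08 above its own mean in DMSO libraries 1 and 2, and 0.03 and 0.21 below it in GSK libraries 1 and 2.

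Signs of tissue handling, other cells and single libraries are given here for the NF-kB results, and their part in these was not tested. Genes of the immediate early and dissociation stress list, which tissue digestion can induce and several of which are also NF-kB targets, had a median change of -0.354. Both GSK libraries lay below both DMSO libraries in 16 of its 19 genes, against 24.5% of all genes tested. Of these 19 genes, 2 fell, Hspa1a and Hspa1b, near-identical copies whose reads could be divided between them, and none rose. Over all genes tested, 0.131% fell and 0.151% rose. Myc and Nr4a1 were next, at -0.68 and -0.44 (adjusted p = 0.0543 and 0.0546). The median of the 19 was -0.257 without DMSO library 1 and -0.451 without DMSO library 2. It was -0.483 without GSK library 1 and -0.198 without GSK library 2. None of the 19 passed without trend or with no filter, 1 passed with the filter at log2 of 50, and 4 with a robust prior. The calls of Hspa1a and Hspa1b also did not hold with every library left out. Library 1 lay above library 2 in 9 of the 10 NF-kB genes in DMSO and in 10 of 10 in GSK, against 50.4% and 50.5% of all genes tested. The lowest of the 4 values was in GSK library 2 in all 10 NF-kB genes, against 28.3% of all genes tested, and the highest was in DMSO library 1 in 7 of the 10, against 28.1%.

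The fibroblast markers were high, with all 10 at 10.65 or above, and their summed level (log2), mostly collagen RNA, was 21.69 to 21.70 in DMSO and 21.57 to 21.66 in GSK. None of the 10 passed the test, and the median change was -0.02. Of the 10, 4 were lower in both GSK libraries, against 24.5% of all genes tested, and 1 was higher in both, against 24.1%. The 4 were Pdpn at -0.37, Dpt at -0.35 (limma adjusted p = 0.0603), Dcn at -0.31 and Col3a1 at -0.30. The pan-leukocyte list, all 6 genes in the table, had a summed level (log2) of 10.52 to 10.75 in DMSO and 11.19 to 11.84 in GSK, which was nearly all Cd53, a tetraspanin gene. Without Cd53 the sums were 5.88 to 5.91 and 5.91 to 5.97, and Ptprc, which encodes CD45, was at 3.77 to 3.91. Other lists differed less between groups. The macrophage list, all 8 genes in the table, summed to 8.74 to 8.83 in DMSO and 8.62 to 8.76 in GSK, led by Csf1r. The T cell and NK cell list, with 4 of 6 genes in the table, summed to 8.86 to 9.24 and 8.77 to 8.86, led by Cd3e at a mean of 8.62, and the endothelial list, all 6 genes, to 8.17 to 8.25 and 8.08 to 8.19, led by Tek. The neutrophil list, led by S100a9, and the B cell list, led by Cd79b, had no tested gene and summed to 2.69 to 2.71 and 3.35 to 3.37 over the 4 libraries. Some markers of depleted cells were near the lower end of the table, with Adgre1 of macrophages at 0.78 to 0.81, S100a8 of neutrophils at 0.79 to 0.81, Cldn5 of endothelium at 0.29 to 0.31 and Epcam of epithelium at 0.32. Others in the macrophage, endothelial and epithelial lists were far higher, with Csf1r at a mean of 8.28, Tek at 7.64 and Krt19 at 8.82. The epithelial and 4T1 list, all 6 genes, summed to 9.05 to 9.11 in DMSO and 8.71 to 8.91 in GSK, mainly through Krt19. Pericyte and smooth muscle genes, which the depletion did not target, all 7 in the table, summed to 13.75 to 14.03 in DMSO and 14.16 to 14.18 in GSK. Of these 7, 4 were higher in both GSK libraries, among them Cspg4 at 0.49, against 24.1% of all genes tested. Another 2 were lower in both, among them Kcnj8 at -0.21, against 24.5%, and none of the 7 passed. In these bulk samples a smaller share of cells with high Tnfaip3 and less Tnfaip3 RNA per cell cannot be told apart.

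Exons of Nfkb2, Nfkbib and Bcl3 overlap those of genes on the opposite strand, and whether counting used the strand is not given in the sources used here. Overlapping exons cover 11.6% of the Nfkb2 exon bases (AC114539.1) and 6.52% (Psd), 14.5% of the Nfkbib bases (Ccer2) and 1.94% (Sirt2), and 6.51% of the Bcl3 bases (Gm16175). The values of these 3 genes are therefore less certain than those of the other 7, among them Tnfaip3 and Nfkbia, for which no overlap and no shared transcript sequence was found.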

How the data were processed

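RNA-seq of the 4 libraries was deposited by the authors as 1 table of normalised log2 values. The submitters' processing notes list Bowtie2, RSEM 1.2.29 and DESeq2 1.12.4, and mm10 beside GRCh38, without saying what each was for. Which transformation gave the log2 values is not given in the sources used here; values ran from -1.035 to 20.578, with library medians of 6.15 to 6.16. If it was one that shrinks low values, fold changes (2 to the power of the difference) understate those of low genes. Depth cannot be recovered, so no counting error is given. No values were identical within a group.

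GENCODE M21 (GRCm38) matched 22357 of 22456 identifiers. Limma 3.58.1 (R 4.3.3) was run on the deposited log2 values, with the group as the only term, a variance prior with trend and no pseudocount, on the 14548 genes whose mean reached log2 of 10 (3.32). Tests were two-sided, and p-values were adjusted by Benjamini-Hochberg, with a threshold of 0.05. The fit was checked on simulated data. Shared sequence was searched with blastn 2.17.0 (at least 98% identity over 200 bases).

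The 10 members, the other pathway lists and the marker lists were chosen with earlier results of these data known. Named genes are the members, Rel, Nfkbid, up to 4 genes per list with the smallest p, and the highest marker of each list. The 5 nearest profiles to the members' mean and to Tnfaip3, with the members left out, are named too. Chuk, Ikbkg, Birc3, Tnfrsf1a, Il1r1, Cyld, Cxcl1, Cxcl2, Mmp9, Cx3cl1, Cflar, Pdpn, Dpt, Dcn and Col3a1 were named after their values were seen. So were Cspg4, Kcnj8, Ptprc, Adgre1, S100a8, Cldn5 and Epcam. Alternatives were other filters, scalings and variance priors, a replicate block and each library left out; those of the target genes, the immediate early genes and the subunit and inhibitor medians were added after seeing the data.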

Additional observations from a re-analysis of the deposited data

How the results depend on the processing

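Over 131 alternative values for the 10 members, Rel and Nfkbid, 120 kept their direction and their side of the threshold. Other filters, other variance priors and the replicate block left every estimate as it was, so no direction could turn in them. The 120 is therefore no measure of how stable the directions are. The direction turned for Nfkb2 without DMSO library 1 (0.011) and without GSK library 2 (0.046), and for Relb without GSK library 2 (0.063). With a library left out, the lowest values of Nfkb2 and Relb were -0.098 and -0.091, both without GSK library 1. Tnfaip3 ran from -1.038 to -0.767 with adjusted p from 0.000112 to 0.222. After quantile normalisation Tnfaip3 had a limma adjusted p of 0.0499, and with the filter at log2 of 50 one of 0.0436. It missed the threshold in 3 of 11 alternatives, while Nfkbia passed in 2, Rel in 2 and Nfkbiz in 1. The number of genes called, 41, was 11 without trend, 138 with a robust prior, 1 with no filter, 23 after quantile normalisation, and 7 to 194 with a library left out. Without a filter, the prior is fitted with 7908 further low genes, and 4712 of them repeat the 4 values of an earlier row. The number of members called, 1, was 0 without trend and with no filter, and 0 to 2 with a library left out. The members' median, -0.093, ran from -0.183 (without GSK library 1) to -0.010 (without GSK library 2), and was nearest to 0 when GSK library 2 was left out. The number of target genes called, 2, was 1 without trend and after quantile normalisation, 4 with a robust prior, 0 with no filter, and 0 to 13 with a library left out (4 without GSK library 1). Their median, -0.366, ran from -0.423 to -0.240 with a library left out and was -0.465 with the filter at log2 of 50. The subunit median, -0.046, ran from -0.106 to 0.021 with a library left out. The causes of these shifts were not tested. With a library left out, the lone sample of its group is assumed to vary like the other group.

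The replicate numbers are shared by both groups. Deviations of same-numbered libraries correlated at 0.428 over 14548 genes, but with 2 pairs and no label that ties them this does not establish a pairing. A fit with the replicate block leaves 1 residual degree of freedom and called 1374 genes, 9.44% of those tested. Among them were 3 of the members (Nfkbia, Nfkbiz and Tnfaip3) and 26 of the target genes, 23 lower and 3 higher. Read depth is unknown, and 2 libraries per group limit the precision of every value.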
